A study of Mus musculus with 81 samples.

Results

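The IAPEY loci are the genomic copies of a group of mouse intracisternal A particle (IAP) endogenous retroviruses, here every locus whose species name (the text before the genome coordinates in its identifier) begins with IAPEY. The rule found 6832 of 970384 listed LTR retrotransposon loci (0.704%), which belonged to 9 species. Of these, 3020 were internal regions (IAPEY3-int, IAPEY4_I-int and IAPEY5_I-int) and 3812 were long terminal repeats (IAPEY_LTR, IAPEY2_LTR, IAPEY3_LTR, IAPEY3C_LTR, IAPEY4_LTR and IAPEY5_LTR). A species spelled IAPEy-int, with a lower-case y, was listed with 751 loci and was not a member under the rule. At least 1 read in at least 1 library was found at 3677 of the 6832 loci (53.8%), against 65.8% of all listed loci.

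All mice were OG2 mice, which carry an EGFP transgene under promoter and distal enhancer sequence of Pou5f1, a germ cell gene, and were kept in the C57BL/6J background. Female F0 mice drank water with 50 nM tributyltin (TBT, an organotin obesogen) or with its vehicle, 0.1% DMSO, and fetal testes of their F1 and F3 male descendants were taken at E18.5 and sorted. The EGFP-positive germline cells were split by side scatter into P4 and P5, and the EGFP-negative somatic cells were P6. RNA-seq libraries numbered 5 DMSO and 7 TBT in F1 P4, 4 and 7 in F1 P5, 5 and 7 in F1 P6, and 4 and 5 in each of the 3 F3 populations, while methylated DNA of P6 (MBD-seq) was read in 3 DMSO and 4 TBT libraries of F1 and in 5 and 7 of F3. Whether a library held 1 fetus or several was not given in the sources used here.

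An IAP provirus has a pair of LTRs around an internal region with gag, pro and pol, and the upstream LTR holds the promoter while the downstream LTR holds the signal for the end of the transcript. In the mouse, IAP copies are silenced by DNA methylation and by heterochromatin guided by KRAB zinc finger proteins, and the piRNA pathway helps to re-establish this silencing in fetal male germ cells. Many IAP copies are now incomplete, and solitary LTRs or short internal pieces lie inside genes, where reads of the host gene's own unspliced transcript can be counted at the piece.

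The sequences of the leading IAPEY loci show the kinds of copy behind the values. All were read from RefSeq GRCm38 and are written 5′ to 3′. The first is the start of the upstream LTR of the IAPEY4_I-int copy with the highest level in P6, at chr7:48132142-48132441 on the minus strand, outside genes.
IAPEY4_LTR of the chromosome 7 copy: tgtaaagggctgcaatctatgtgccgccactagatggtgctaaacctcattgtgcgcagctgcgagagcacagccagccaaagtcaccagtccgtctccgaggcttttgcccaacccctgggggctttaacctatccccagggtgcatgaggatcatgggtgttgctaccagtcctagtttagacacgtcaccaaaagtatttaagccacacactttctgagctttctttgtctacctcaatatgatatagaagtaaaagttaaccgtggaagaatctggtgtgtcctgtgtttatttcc
The next 3 sequences compare a stretch inside the same proviral copy (chr7:48127197-48127322, minus strand) with the IAPEY4_I-int pieces of 123 bases in introns of Dtd1 (chr2:144630776-144630898, minus strand) and Med6 (chr12:81584414-81584536, plus strand), which were the leading IAPEY4_I-int loci of the germline cells. Capitals in the proviral stretch mark bases that differ from the commonest piece of this length, and capitals in the pieces mark bases that differ from the proviral stretch, with deleted bases not marked.
Provirus stretch: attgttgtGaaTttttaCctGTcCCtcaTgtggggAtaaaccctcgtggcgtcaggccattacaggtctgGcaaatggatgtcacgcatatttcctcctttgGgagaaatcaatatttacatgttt
Dtd1 piece: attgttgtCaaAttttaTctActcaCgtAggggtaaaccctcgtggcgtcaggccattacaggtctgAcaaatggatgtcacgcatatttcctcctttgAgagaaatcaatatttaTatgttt
Med6 piece: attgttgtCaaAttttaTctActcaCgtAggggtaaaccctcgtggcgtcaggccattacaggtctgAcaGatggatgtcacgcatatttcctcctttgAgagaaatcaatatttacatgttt
The last is the IAPEY3_LTR in an intron of Rbm25, a splicing regulator gene (chr12:83656223-83656504, plus strand), which had the highest mean of all IAPEY loci in F3 P4 and F3 P5. Capitals mark the letters AATAAA, the commonest form of the polyadenylation signal.
Rbm25 IAPEY3_LTR: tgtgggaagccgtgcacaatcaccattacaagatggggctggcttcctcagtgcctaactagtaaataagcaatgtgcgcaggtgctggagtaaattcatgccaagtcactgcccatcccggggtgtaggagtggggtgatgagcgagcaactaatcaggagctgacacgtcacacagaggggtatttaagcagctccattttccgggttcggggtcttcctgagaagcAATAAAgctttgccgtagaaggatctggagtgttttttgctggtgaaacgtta
AATAAA was searched on both strands of every LTR locus of 250 to 350 bases, and it was present in 89.2% of 511 IAPEY3_LTR loci, in 93.8% of 2071 IAPEY LTR loci and in 35.3% of 171558 LTR loci of any name.

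IAPEY loci were frequent on the Y chromosome but gave little signal there. The Y held 2115 of the 6832 loci (31.0%), against 4.15% of all listed loci, and these were mainly IAPEY3-int (1094 of 2321 loci), IAPEY_LTR (833 of 1403) and IAPEY3C_LTR (153 of 471). By contrast, IAPEY4_I-int had 21 of 515 loci on the Y, and IAPEY4_LTR (92 loci), IAPEY5_I-int (184) and IAPEY5_LTR (237) had none. The median share of the family's signal from Y loci was between 0.0447% and 0.402% in the 6 populations. Most IAPEY loci lay outside annotated genes (5916), and 799 lay in introns and 117 overlapped exons. When loci with gaps of at most 1000 bases were joined, the family formed 4063 stretches, of which 3009 held a single locus and the largest held 9.

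In P4 the signal of the family came mainly from introns, and in P5 and P6 more of it came from loci outside genes. The median share from introns was 83.6% in F1 P4, 62.9% in F1 P5 and 48.2% in F1 P6, and in F3 it was 78.4%, 49.5% and 48.1%. The share from loci outside genes was 8.71%, 27.7% and 33.5% in F1 P4, P5 and P6, and 14.2%, 42.5% and 30.9% in F3. Over all LTR loci, the median share from outside genes was 2.19%, 5.29% and 1.496% in F1 and 3.22%, 11.2% and 1.34% in F3, so that in every population a larger part of the IAPEY signal than of the whole lay outside genes.

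The depth was 2824806 to 6304053 reads per library in F1 and 246520 to 8161548 in F3, where the lowest was the P5 library TBT 5. The sort was checked with LTR loci inside marker genes, since the tables list no genes. Summed over 10 of 12 germ cell genes that hold a listed locus (such as Dazl, Ddx4 and Piwil2), F1 libraries had 12666 to 22304 CPM in P4, 9299 to 17405 in P5 and 24.7 to 50.0 in P6. In F3, germline libraries had 7972 to 18608 CPM except for P4 TBT 5 (1321) and TBT 9 (2274) and P5 TBT 5 (187), DMSO 1 (2482) and DMSO 2 (2018), and these 5 also had the largest shares of reads outside genes for their population, at 11.4% or more. Somatic libraries of F3 had 14.4 to 24.8 CPM except for DMSO 3 (242) and DMSO 4 (210). Sertoli cell genes (Wt1, Gata4 and Dmrt1, 3 of 6 with a locus) summed to 0 to 1778 CPM in germline libraries and 914 to 1441 in P6. These ranges overlapped, so this sum did not separate the populations. Leydig cell genes (Cyp11a1, Cyp17a1 and Nr5a1, 3 of 6 with a locus) summed to 178 to 477 CPM in P6 and to 0 to 60.5 in germline libraries, except in F1 P4 DMSO 43-4, 44-1 and 44-3, which had 93.9, 113 and 219 CPM. The F1 P6 libraries TBT 7 and TBT 8 had 6.79% and 6.95% of reads outside genes, against 0.999% to 1.82% in the other 10.

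The family took up a small share of the reads at LTR loci, and the share was lower in P4 than in P5 in the medians of both generations. The lowest, median and highest library had 0.0973%, 0.104% and 0.119% of its reads at IAPEY loci in F1 P4, 0.127%, 0.147% and 0.167% in F1 P5 and 0.185%, 0.238% and 0.283% in F1 P6. In F3 the values were 0.103%, 0.111% and 0.142% in P4, 0.149%, 0.185% and 0.397% in P5 and 0.223%, 0.256% and 0.273% in P6. The F1 ranges of the 3 populations did not overlap. In F3 P5 the 3 libraries with low germ cell marker signal had the highest shares (0.358% to 0.397%), and the other 6 reached 0.199%. Germline and somatic tables were normalised separately by the authors, so P6 levels are set beside germline levels here without a test, and in these bulk populations more cells with a transcript and more transcript per cell cannot be told apart.

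The 9 species differed in which population they were most abundant in. IAPEY4_I-int, the internal region that pairs with IAPEY4_LTR, had 214 ± 19.4 CPM (SD, n = 12) in F1 P4, 252 ± 25.1 (n = 11) in F1 P5 and 1201 ± 238 (n = 12) in F1 P6. In F3 it had 250 ± 94.0, 344 ± 113 and 1407 ± 155 CPM (SD, n = 9 each). The lowest P6 library (841 CPM in F1 and 1142 in F3) was above the highest germline library of its generation (286 and 534). IAPEY4_LTR followed the same order in F1, with 46.3 ± 5.52, 53.8 ± 7.22 and 143 ± 34.4 CPM, but its F3 germline libraries were widely spread (17.2 to 215 CPM) and overlapped with P6 (116 to 162 CPM).

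**Figure D1:**
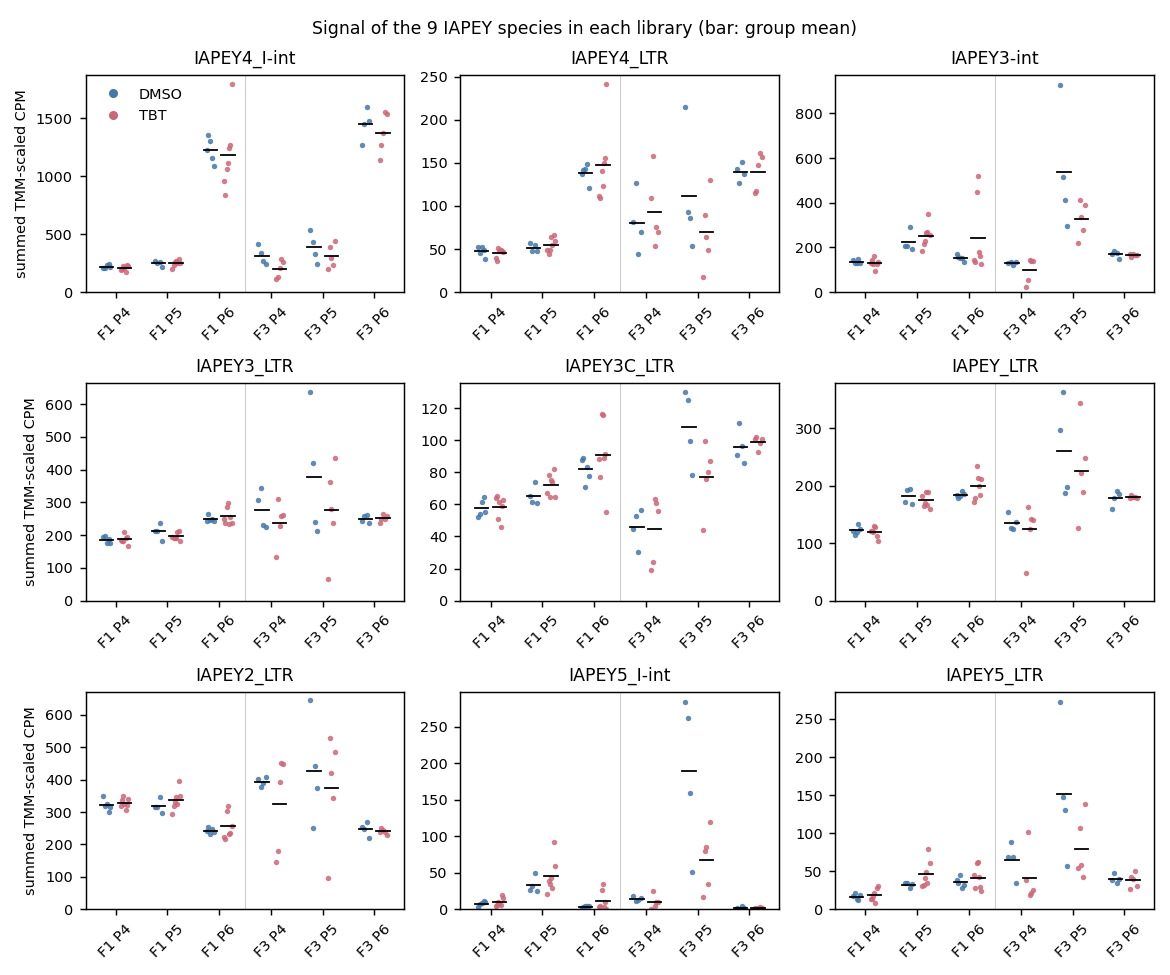
Summed TMM-scaled CPM of each of the 9 IAPEY species (y axes, linear) in every RNA-seq library of the 6 populations (x axes), with 1 point per library, DMSO in blue and TBT in red, and a bar at the mean of each group. IAPEY4_I-int is highest in P6 (841 to 1794 CPM in F1), while IAPEY5_I-int is highest in P5 (up to 284 CPM in F3).

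IAPEY5_I-int showed another order. It had 8.88 ± 4.65 CPM in F1 P4, 41.0 ± 20.3 in F1 P5 and 8.04 ± 10.8 in F1 P6, and 11.9 ± 7.13, 121 ± 96.2 and 1.69 ± 0.996 in F3 (SD, n as above). In F1 P6 the 2 libraries with many reads outside genes, TBT 7 and TBT 8, had 25.6 and 35.0 CPM and the other 10 had 0.771 to 9.24. IAPEY3-int was likewise highest in P5 of F3 (421 ± 209 CPM, against 113 ± 43.4 in P4 and 167 ± 9.77 in P6). The highest F3 P5 values of both species were in DMSO 1 and DMSO 2 (929 and 514 CPM of IAPEY3-int, 284 and 261 of IAPEY5_I-int), which had low germ cell marker signal and 23.5% and 27.9% of reads outside genes, while the other 7 libraries had 221 to 412 and 17.2 to 160 CPM. In F1 P6 TBT 7 and TBT 8 stood at 448 and 519 CPM of IAPEY3-int. IAPEY2_LTR and IAPEY5_I-int had lower means in P6 than in P4 and P5 of both generations, and for IAPEY2_LTR these were 250.1 ± 31.0 CPM in F1 P6 against 326 ± 15.7 and 331 ± 28.5. The leading IAPEY2_LTR locus of F1 P4 lies in an intron of Adipor1, a gene for an adiponectin receptor (chr1:134425224-134425344, 62.4 ± 6.25 CPM, SD, n = 12).

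Per kilobase of listed sequence, IAPEY4_LTR had the highest mean level of the 9 species in every population, from 1.60 CPM per kb in F1 P4 to 4.96 in F1 P6, and IAPEY4_I-int came second in P6 (2.89 in F1 and 3.39 in F3). IAPEY3-int, with the most loci, was at or below 0.202 CPM per kb in all 6 populations. These averages rest on few loci, since the 10 leading loci of the family held 34.8% of its signal in F1 P4, 21.7% in F1 P5 and 40.4% in F1 P6.

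The name IAPEY4_I-int covered 2 main kinds of locus, short pieces whose summed level was not raised in P6 and full-length copies whose summed level was. Of its 515 loci, 263 (51.1%) were pieces of 120 to 126 bases, and 262 of these were flanked on both sides by IAPEz-int, the internal region of another IAP species. The commonest sequence of 123 bases was shared by 129 of the 263, the median piece differed from it by 1 edit, and it aligned to bases 4794 to 4919 of the chromosome 7 copy with 90.6% identity. A further 106 loci were pieces of 56 to 62 bases, 81 of them between IAPEY3-int or IAPEy-int loci on both sides, and the commonest of these matched bases 4861 to 4919 of that copy with 98.3% identity. Full-length internal regions, of 7000 bases or more, numbered 27, and 119 loci were other parts.

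In P4 most of the IAPEY4_I-int signal was at the short pieces, and in P6 most of it was at the full-length copies. The pieces of 120 to 126 bases held a median of 88.6% of the signal in F1 P4, 54.5% in F1 P5 and 12.4% in F1 P6, and 85.1%, 45.2% and 10.4% in F3. The full-length copies held 7.53%, 24.8% and 73.6% in F1, and 7.53%, 30.2% and 75.4% in F3. In CPM the short pieces ran from 158 to 208 in F1 P4, from 129 to 157 in P5 and from 132 to 168 in P6, while the 27 full-length copies together ran from 7.83 to 53.7 CPM in F1 P4, from 37.8 to 83.9 in F1 P5 and from 590 to 1386 in F1 P6. The 3 highest sums of F1 P4 were those of DMSO 43-4, 44-1 and 44-3 (34.6, 49.2 and 53.7 CPM), the libraries with raised Leydig cell marker signal, and the other 9 were at or below 21.99. The part of Leydig cell RNA in these sums was not tested. The share at the short pieces was 76.0% at the median with DMSO (70.4% at the lowest) and 90.3% with TBT in F1 P4. In F3 the full-length sums were 12.6 to 62.5, 57.4 to 292 and 824 to 1204 CPM. In both generations every P6 library was above every germline library.

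**Figure D2:**
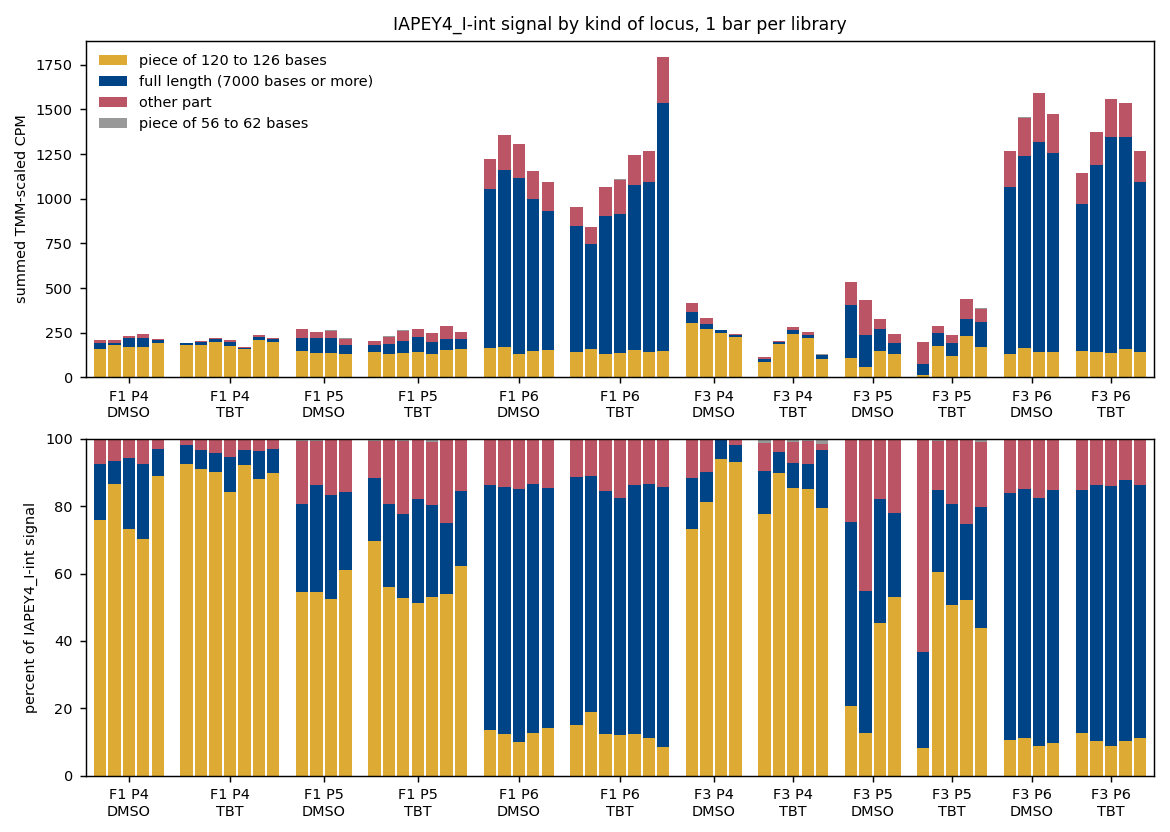
IAPEY4_I-int signal of every library split by kind of locus, as summed TMM-scaled CPM (upper axis) and as percent of the library's IAPEY4_I-int signal (lower axis), with 1 bar per library and libraries grouped by population and exposure. The pieces of 120 to 126 bases fill most of the P4 bars (median 88.6% in F1) and the full-length copies most of the P6 bars (median 73.6% in F1).

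The leading pieces lay in introns and were lower in P6. The Dtd1 piece had 64.8 ± 9.94 CPM in F1 P4, 44.4 ± 7.60 in F1 P5 and 13.02 ± 5.55 in F1 P6 (SD, n = 12, 11 and 12), and the Med6 piece had 50.9 ± 6.48, 37.7 ± 6.39 and 15.6 ± 4.58 CPM. Dtd1 encodes a D-aminoacyl-tRNA deacylase and Med6 a Mediator subunit. Both pieces lie between IAPEz-int loci and neither holds a run of 75 bases, the length of a read, that is unique in the genome, so their reads could also have come from other copies. The Rbm25 IAPEY3_LTR, in which 93.3% of such runs were unique, was near the same level in all F1 populations, with 54.5 ± 8.57, 46.8 ± 5.16 and 42.6 ± 7.10 CPM in P4, P5 and P6, and the Adipor1 IAPEY2_LTR, with 100% unique runs, had 62.4 ± 6.25, 48.8 ± 5.95 and 60.0 ± 9.87.

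The full-length copies were led by 1 locus. The copy at chr7:48124450-48132115, outside genes and read on the minus strand as judged from its longest stop-free frame (2637 bases), had 444 ± 131 CPM in F1 P6 (275 to 787, n = 12) and 468 ± 76.8 in F3 P6 (341 to 592, n = 9). It had 2.23 ± 3.13 CPM in F1 P4, 5.76 ± 1.94 in F1 P5, 0.116 ± 0.183 in F3 P4 and 4.35 ± 2.60 in F3 P5. It held 50.2% of the full-length signal of F1 P6 and 44.3% of F3 P6. Of its 75-base runs, 33.2% were unique in the genome. Its LTRs were 98.5% identical, and the downstream LTR (chr7:48124124-48124449) had 50.8 ± 18.7 CPM in F1 P6 against 9.87 ± 3.21 for the upstream LTR printed above. In F3 P6 the values were 45.5 ± 9.19 and 10.8 ± 2.59, and the ranges of the LTRs did not overlap in either generation.

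Further copies with raised P6 levels stood in introns, in exons of unnamed transcripts and between genes. The copy at chr1:100224149-100231814, in an intron of Cntnap5b, a contactin-associated protein gene, had 81.7 CPM in F1 P6 and 110 in F3 P6 (2.35 and 0.444 in P4). The copy at chr19:9829174-9836838, overlapping an exon of AC132253.9, had 76.7 and 120 CPM (0.653 and 0.161 in P4). The copy at chr14:43925486-43933140, in an exon of Gm8113, had 52.0 and 86.0 CPM, and it was also the copy with the highest mean in P5 (10.8 in F1 and 15.3 in F3). In all, 14 of the 27 copies were higher in every F1 P6 library than in any F1 germline library, and 9 were so in F3. The same held for 3.45% of all loci with a read in F1 and 5.42% in F3, and for 2.68% (13 of 485) and 4.67% (20 of 428) of internal regions of at least 7000 bases outside the IAPEY family.

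The levels of the full-length copies in P6 are given by the likeness of their LTRs, as a description. The LTR pair could be compared in 17 copies and was identical in 10. The 10 copies with identical LTRs had means of 9.44 to 81.7 CPM in F1 P6 (median 17.3), and their internal regions were 97.5% to 98.4% identical to the chromosome 7 copy. The 7 copies with differing LTRs (93.9% to 98.8% identity) had a median of 2.48 CPM, with 4 of them below every copy with identical LTRs and 3, the chromosome 7 copy among them, above the median of those copies. The 10 without a matching LTR pair had 0 to 19.6 CPM (median 1.13). In F3 P6 the medians were 22.6, 4.42 and 0.945 CPM. The copies share much of their sequence (a median of 17.2% of their 75-base runs were unique), so reads may have been assigned to a copy other than their source.

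**Figure D3:**
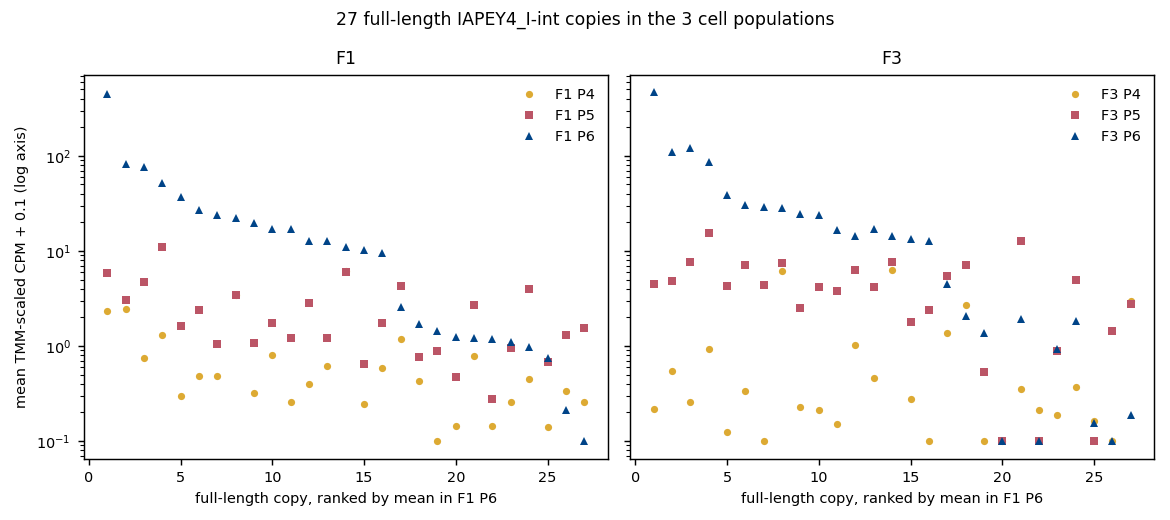
Mean TMM-scaled CPM plus 0.1 (y axis, log scale) of the 27 full-length IAPEY4_I-int copies, ranked by their mean in F1 P6 (x axis), in P4, P5 and P6 of F1 (left) and F3 (right). The chromosome 7 copy at rank 1 stands at 444 CPM in F1 P6 and 468 in F3 P6, and at 5.76 CPM or less in the germline populations.

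IAPEY3-int, the species with the most loci, had 37 full-length copies, 1 of them on the Y, and these had less signal than the IAPEY4_I-int copies in every population. Their sum had a median of 1.12 CPM in F1 P4, 10.97 in F1 P5, 4.68 in F1 P6, and the F3 medians were 2.79, 22.4 and 0.414 CPM in P4, P5 and P6, with single libraries of up to 83.2 in F1 P6 and 105 in F3 P5, and none of the 21 LTR pairs that could be compared was identical (89.2% to 95.5%). Their sequence was more often distinct than that of the IAPEY4_I-int copies, with a median of 70.0% of 75-base runs unique.

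P4 and P5 were normalised together, so the germline populations could be tested against each other across all loci (limma, exposure as a covariate, Benjamini-Hochberg adjustment over all tested loci). In F1, 66 of 162 tested IAPEY loci differed, 46 higher and 20 lower in P5. Over all tested loci 39.3% differed, 17.6% higher and 21.6% lower, so that the share among IAPEY loci was close to the background and the higher loci were the larger part. Of 23 tested IAPEY loci outside genes, 16 were called, all higher in P5, beside 45.6% called among all loci outside genes (42.5% higher and 3.18% lower). Of 121 in introns, 39 were called, 20 higher and 19 lower, beside 38.9% of all loci in introns, and of 18 in exons, 11 were called, 10 higher and 1 lower, beside 39.7% of all loci in exons. Many of the higher loci entered the test through P5, since the filter on low values (a mean of 5 units over both populations, where 1 unit is the value of about 1 read) was reached in P4 alone by 19 of the 46 higher IAPEY loci, against all 20 lower ones. Outside genes it was reached in P4 alone by 8 of the 23 tested loci and by 2 of the 16 called.

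The full-length IAPEY4_I-int copies gave 10 of the 46 higher loci of F1. Only 12 of the 27 copies could be tested, 10 of these were called, all higher, and 3 of the 10 reached the filter in P4 alone. The sum over all 27 copies, which needs no filter, was higher in P5 than in the P4 library of the same number in 11 of 11 numbers of F1, though the ranges overlapped (7.83 to 53.7 and 37.8 to 83.9 CPM). Among 14 tested pieces of 120 to 126 bases 1 was higher and 3 were lower. The share of reads outside genes moved with P5 as well (1.83% to 2.51% in P4 and 3.83% to 7.34% in P5), germ cell marker sums were lower in P5 in 11 of 11 numbers and endothelial marker sums higher in 10 of 11, and their part in the rise was not tested. The largest rises were at the IAPEY4_I-int locus at chr5:15500001-15506974 (log2 fold change 4.16 ± 0.36 SE, adjusted p = 3.06e-11), the Gm8113 copy (3.79 ± 0.36, adjusted p = 1.95e-10) and the IAPEY3-int locus in an exon of Gm26901 at chr1:7349689-7352531 (3.42 ± 0.44, adjusted p = 1.76e-07). The chromosome 7 copy rose by 2.51 ± 0.53 (adjusted p = 0.000268), though it lost the call in 1 alternative. Among called loci, the largest falls were smaller and intronic, at IAPEY2_LTR in Lama3, a laminin chain gene (-0.96 ± 0.23, adjusted p = 0.00107), IAPEY3_LTR in Cfap57, a cilia gene (-0.82 ± 0.19, adjusted p = 0.000894) and IAPEY2_LTR in Prkd1, a protein kinase gene (-0.68 ± 0.14, adjusted p = 0.000181). The Dtd1 and Med6 pieces also fell, by 0.55 and 0.44 on the log2 scale. The Lama3 locus and the Med6 piece each lost the call in 1 alternative (adjusted p = 0.154 and 0.0994). Without the numbers 43-4, 44-1 and 44-3 in both populations, 64 of 166 tested IAPEY loci were called, 44 higher and 20 lower. The count was 22 with DMSO libraries alone, 31 with a filter of 20 units in place of 5, and 156 without a filter.

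**Figure D4:**
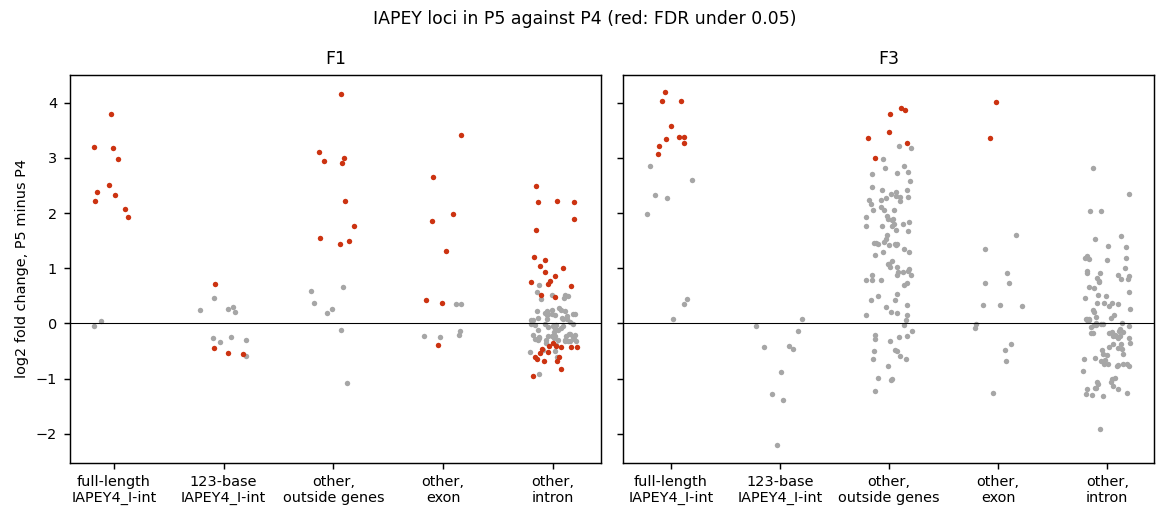
Log2 fold change of P5 minus P4 (y axis) for each tested IAPEY locus, grouped by kind and place (x axis), in F1 (left, 162 loci) and F3 (right, 254 loci), with red points for an adjusted p under 0.05. Red points above 0 gather at full-length IAPEY4_I-int copies (10 of 12 in F1 and 10 of 18 in F3), and intronic loci scatter around 0. Most of the red points above 0 are loci that reached the filter on low values only through P5.

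In F3 fewer loci passed, and all of them were higher in P5. Of 254 tested IAPEY loci, 19 were called, all higher, beside 1.01% of all tested loci. Over all loci, 1% were called higher and 0.0112% lower. They were 13 of 116 outside genes (4.47% of all loci outside genes), 6 of 21 in exons (1.07% of all loci in exons) and 0 of 117 in introns (0.412% of all loci in introns). None of the 19 reached the filter in P4 alone, so each entered through P5, where it was high, and could only come out higher. Of the 254 tested loci, 141 reached the filter in P4 alone, and none of these was called in either direction. Full-length IAPEY4_I-int copies gave 10 of these 19, with 18 of the 27 copies tested. The sum over all 27 copies was higher in P5 than in P4 in 9 of 9 numbers of F3, with ranges that overlapped (12.6 to 62.5 and 57.4 to 292 CPM). The largest rises were at chr5:110016076-110023589, a copy between RLTR46B loci (4.19 ± 0.83 SE, adjusted p = 0.00781), at the AC132253.9 copy (4.03 ± 0.72, adjusted p = 0.00347) and at the Gm8113 copy (4.02 ± 0.92, adjusted p = 0.0213). Among the alternatives the calls were lost in 2 of 19, 1 of 18 and 9 of 19 cases, with an adjusted p of up to 0.271, 0.187 and 0.186. The count was 1 with a filter of 20 units, 11 without a filter and 64 by the quasi-likelihood test of edgeR. It was 32 without number 5, 11 without 4, 10 without 8 or 9, 8 without 3 or 6 and 7 without 7, each number taking its P4 and P5 library along, and it was 10 without DMSO 1 and DMSO 2 together, the numbers whose P5 libraries had low germ cell marker signal, and 0 with DMSO libraries alone. In P5 the share of reads outside genes was higher in 8 of 9 numbers. Germ cell marker sums were lower in 8 of 9 and endothelial marker sums higher in 9 of 9. Depth differed between the P4 and P5 library of a number in either direction. The part of these traits in the rise was not tested.

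Summed by species, 8 of the 9 totals were higher in P5 than in P4 in F1, and IAPEY2_LTR was not called (log2 fold change 0.02 ± 0.04, adjusted p = 0.744). Over all species 67.5% were called. The changes were largest for IAPEY5_I-int (2.20 ± 0.26, adjusted p = 1.07e-07), IAPEY5_LTR (1.17 ± 0.18), IAPEY3-int (0.84 ± 0.09) and IAPEY_LTR (0.55 ± 0.04), and they were between 0.11 and 0.26 for IAPEY3C_LTR, IAPEY4_I-int, IAPEY4_LTR and IAPEY3_LTR. In F3, IAPEY5_I-int (3.43 ± 0.67, adjusted p = 0.00283) and IAPEY3-int (1.95 ± 0.34, adjusted p = 0.000795) were called, beside 3.02% of all species. Without the numbers 1 and 2, IAPEY3-int was called (1.82 ± 0.41, adjusted p = 0.0324) and IAPEY5_I-int was not (3.24 ± 0.86, adjusted p = 0.0881). With the number as a block, 5 totals were called, these 2 with IAPEY_LTR, IAPEY3C_LTR and IAPEY5_LTR. The IAPEY4_I-int total had a log2 fold change of 0.50 ± 0.26 in F3 and was not called (adjusted p = 0.517), and this total sums the full-length copies and the short pieces.

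Few IAPEY loci were called by limma for exposure of the F0 mothers to TBT. No IAPEY locus was called between TBT and DMSO in F1 P4 (0 of 131 tested, background 0%), F1 P5 (0 of 245, background 0.0106%), F1 P6 (0 of 178, background 0.00341%), F3 P4 (0 of 163, background 0%) or F3 P5 (0 of 329, background 0%) by limma. At an unadjusted p under 0.05 these populations had 9, 27, 12, 4 and 7 IAPEY loci, beside 7.09%, 6.89%, 3.68%, 1.65% and 1.01% of all tested loci. The likelihood ratio test of edgeR, the kind of test the authors used, was also run on recovered reads. It called 2, 1, 3, 0 and 23 IAPEY loci, beside 0.0982%, 0.32%, 0.05%, 0.00463% and 3.13% of all tested loci. In F3 P6, 3 of 198 tested loci were called, 1 higher and 2 lower with TBT, beside 0.0343% of all tested loci (36 of 104835), 0.02% higher and 0.0143% lower. At an unadjusted p under 0.05 there were 20 (7.96% of all tested loci), and the likelihood ratio test called 7 (0.32% of all). All 3 were internal regions of IAPEY4_I-int, and none of 538 other IAP internal regions and 525 other IAP LTRs tested in these libraries was called.

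The locus at chr16:3625352-3628768 lies outside genes, where 0.396% of all tested loci were called in this comparison, and is the left part of an IAPEY4_I-int copy between RLTR46B LTRs. Its values in F3 P6 were 7.14, 10.1, 7.44 and 27.97 CPM in DMSO 1 to 4, and 1.47, 0.340, 0.643, 2.28 and 1.24 in TBT 5 to 9. Every TBT library was below every DMSO library, and DMSO 4 was far above the others. The fall was 3.21 ± 0.41 on the log2 scale (SE, adjusted p = 0.000763), it passed in all 17 alternatives (log2 fold change -3.55 to -2.68), among them the fit without DMSO 3 and DMSO 4, and 81.8% of its 75-base runs were unique. The right part of the copy, at chr16:3628866-3632950, also had no overlap between the groups, at a log2 fold change of -3.34 ± 0.69 (adjusted p = 0.102). In F1 P6 the left part had 7.83 ± 4.91 CPM with DMSO (n = 5) and 5.67 ± 3.18 with TBT (n = 7), with a log2 fold change of -0.41 ± 0.36 (adjusted p = 0.999). Whether the F1 and F3 effects differ was not tested.

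The other called loci depended on the settings. At chr6:3333741-3337110, which overlaps exons of Gm20559, Gm43198 and Gm43197, DMSO 1 to 4 had 20.03, 23.4, 9.92 and 16.5 CPM and TBT 5 to 9 had 7.17, 2.04, 9.13, 4.97 and 5.43. The groups did not overlap, but DMSO 3 and TBT 7 lay close together. The log2 fold change was -1.65 ± 0.29 (adjusted p = 0.0371), and the call was lost in 7 of 17 alternatives (adjusted p up to 0.155). The right part of that copy, at chr6:3337208-3341286, had a log2 fold change of 1.23 ± 0.42 (adjusted p = 0.466) and was not called. At chr10:79413253-79416675, in an exon of Gm47015 between IAPLTR4 and IAPLTR3-int, no DMSO library had a read and TBT 5 to 9 had 5.15, 2.89, 0.772, 4.55 and 0.620 CPM, from 4 to 28 reads. Against a floor of 3 reads in each DMSO library the TBT mean was at least 4.29-fold higher, and the locus entered the test through TBT alone, so that it could only be higher (adjusted p = 0.0421, lost in 7 of 16 alternatives, adjusted p up to 0.310).

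DMSO 3 and DMSO 4 of F3 P6 were also the somatic libraries with raised germ cell marker signal, and without them 2 of the 3 loci stayed called, with the chromosome 10 locus at an adjusted p of 0.0864. Endothelial marker genes (5 of 5 with a locus) summed to 99.1 to 133 CPM with DMSO and 129.9 to 165 with TBT in F3 P6, where 4 of 5 TBT libraries were above every DMSO library, while the ranges of Sertoli, Leydig and macrophage genes overlapped there. In F1 P6 the macrophage genes (4 of 5 with a locus) did not overlap between the exposures, at 30.4 to 38.2 CPM with DMSO and 38.8 to 87.1 with TBT. Germ cell genes overlapped in F1 P6, at 24.7 to 32.3 CPM with DMSO and 29.5 to 50.0 with TBT. The part of these cell types in the TBT comparisons was not tested. Loci whose DMSO and TBT libraries did not overlap numbered 1 of 131 in F1 P4 (background 0.386%), 7 of 245 in F1 P5 (0.886%), 0 of 178 in F1 P6 (0.317%), 2 of 163 in F3 P4 (1.9%), 2 of 329 in F3 P5 (0.428%) and 11 of 198 in F3 P6 (2.9%). Among the largest of these that were not called were an IAPEY4_I-int part at chr3:9392726-9393735 in F1 P5 (0.128 ± 0.165 CPM with DMSO against 2.38 ± 1.09 with TBT, log2 fold change 3.08 ± 0.54, adjusted p = 0.0704) and the Gm8113 copy in F1 P4 (-2.78 ± 0.68, adjusted p = 0.582). The chromosome 3 part entered the test through TBT alone and the Gm8113 copy through DMSO alone. Each could thus only come out in the direction seen. The Gm8113 copy had 1.03, 5.31 and 2.71 CPM in DMSO 43-4, 44-1 and 44-3, the F1 P4 libraries with raised Leydig cell marker signal, 1.07 and 3.20 in the other DMSO libraries and 0 to 0.521 with TBT. Endothelial marker genes also did not overlap between the exposures in F1 P4, at 67.0 to 72.3 CPM with DMSO and 73.7 to 91.2 with TBT. The part of Leydig or endothelial cell RNA in this difference was not tested, and without those 3 libraries the copy fell below the filter on low values. The Cntnap5b copy in F1 P5 had a log2 fold change of -1.28 ± 0.41 (adjusted p = 0.463). Among the loci without overlap in F3 germline cells, the largest negative values were at an IAPEY2_LTR in Zfand4 in P4 (-2.37 ± 1.02, adjusted p = 0.870) and an IAPEY5_LTR at chr7:106561082-106561363 in P5 (-2.79 ± 1.34, adjusted p = 0.9999).

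**Figure D5:**
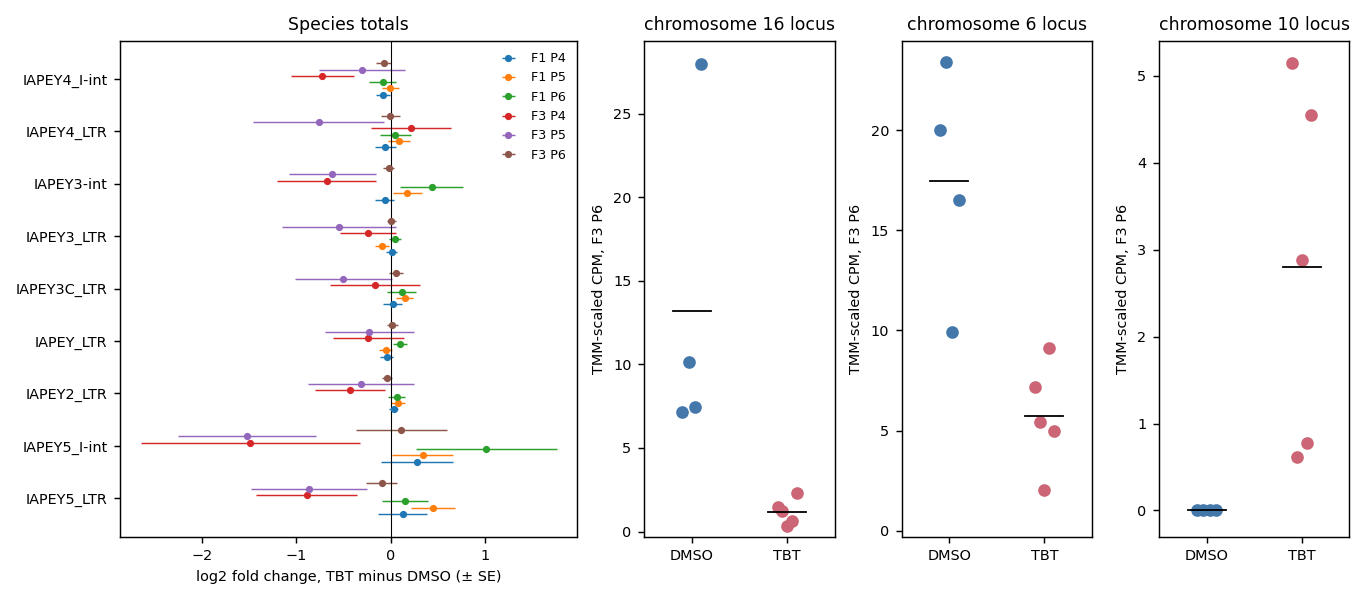
Left, log2 fold change of TBT minus DMSO (x axis, bars are SE) of the 9 IAPEY species totals (rows) in the 6 populations. Right, TMM-scaled CPM (y axes) of the 3 called loci in each F3 P6 library, DMSO in blue and TBT in red with a bar at the mean, where the chromosome 16 locus stands at 7.14 to 27.97 CPM with DMSO and 0.340 to 2.28 with TBT.

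None of the 9 species totals was called for TBT in any population (0 of 9 in each by limma, background 0%), and none had an unadjusted p under 0.05. In F1 the log2 fold changes ran from -0.09 to 0.27 in P4, from -0.10 to 0.44 in P5 and from -0.09 to 1.01 in P6, where the upper end was IAPEY5_I-int and the libraries TBT 7 and TBT 8 were high. In F3 they ran from -1.49 to 0.21 in P4, with 8 of 9 lower (89.6% of all 662 species totals), from -1.52 to -0.23 in P5, with 9 of 9 lower (78.1% of all 663), and from -0.10 to 0.11 in P6. The median over all species totals was -0.41 in F3 P4 and -0.18 in F3 P5. The median over tested IAPEY loci was -0.60 in F3 P4 beside -0.69 for all loci, and -0.45 in F3 P5 beside 0.15. IAPEY5_I-int had the lowest value in both F3 germline populations. Its F3 P5 libraries had 284, 261, 160 and 51.2 CPM in DMSO 1 to 4 and 17.2, 85.7, 34.0, 120 and 79.4 in TBT 5 to 9, so that the groups overlapped, and the highest values were DMSO 1 and DMSO 2, where germ cell marker signal was low. The difference of the TBT effect between P5 and P4 was not called for any species total in either generation.

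No full-length IAPEY4_I-int copy was called for TBT in P6 of either generation. The chromosome 7 copy had 410, 438 and 522 CPM as lowest, median and highest value in the 5 DMSO libraries of F1 P6 and 275, 353 and 787 in the 7 TBT libraries (log2 fold change -0.15 ± 0.18, adjusted p = 0.999), and the TBT range enclosed the DMSO range. In F3 P6 it had 461 ± 32.5 CPM with DMSO and 473 ± 105 with TBT (0.01 ± 0.11, adjusted p = 0.987). Over the 18 and 21 tested full-length copies of F1 and F3 P6, the median log2 fold changes were -0.11 and -0.09, with 14 and 13 lower in TBT and none called. The medians over all tested loci were -0.04 and 0.02. The copies share much of their sequence, so their values are not independent of each other.

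MBD-seq counts of P6 DNA were read in 100-base windows on IAPEY loci, and no input library was used here. Windows without a CpG also held counts, such as chr3:47792101-47792200 in F1 (means of 22 with DMSO and 30.5 with TBT). How far the counts reflect methylation was not tested. The tables held 193 windows on an IAPEY locus among 154773 in F1 and 175 among 164382 in F3, none of them on the Y. These windows had a mean of 2.56 CpGs in F1 and 2.41 in F3, against 0.818 and 0.813 over all windows, and a mean count of 22.5 and 22.9 against 7.90 and 7.63. IAPEY_LTR windows were the richest in CpG in F1 (a mean of 5.35 over 20 windows), and IAPEY4_I-int windows had a mean of 1.70 over 20 windows and the lowest mean count (11.98). Reads at IAPEY windows were 3327 to 3872 CPM of all window counts with DMSO and 3375 to 3878 with TBT in F1, and 2785 to 3444 and 2566 to 3802 in F3, so that the groups overlapped. By the quasi-likelihood test of edgeR none of 145 tested IAPEY windows was called in F1 (background 0.0318%) and none of 139 in F3 (background 0%), and 5 and 6 had an unadjusted p under 0.05, beside 5.05% and 5.16% of all tested windows. The smallest p in F1 was at an IAPEY2_LTR window at chr10:127792701-127792800 over exons of Rdh16f1 and Rdh9 (log2 fold change 0.58, adjusted p = 0.940), and in F3 at an IAPEY4_I-int window at chr7:32397901-32398000, outside genes (-0.70, adjusted p = 0.913).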

How the data were processed

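RNA-seq of sorted fetal testis cells was made by the authors with an oligo(dT)-primed low-input kit, trimmed with Trim Galore, aligned with STAR to GRCm38 (mm10) and assigned to RepeatMasker LTR loci with a modified ERVmap procedure. The deposited RNA values are a signal in CPM (reads scaled to the library total) that the authors adjusted with TMM factors in edgeR. This was done separately for germline and somatic tables, so P6 was never tested against P4 or P5. After adjustment, the totals of F3 germline libraries ran from 235832 CPM (P5 TBT 5) to 1.42e+06 CPM (P5 TBT 8). Levels in CPM of these libraries carry this scaling. Every value was a whole multiple of its library's smallest value within 0.02, and these multiples are called recovered reads. MBD-seq tables hold deposited raw counts per 100-base window, and how those reads were aligned was not given in the sources used here.

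Loci and summed species totals were tested with limma 3.58.1 (trended) in R 4.3.3 on log2(CPM + 1 unit), where 1 unit is the median over a fit's libraries of the smallest value above 0, so fold changes of low loci are understated. Loci or totals with a mean of at least 5 units entered, and p-values were adjusted (Benjamini-Hochberg) over all tested loci or species with a threshold of 0.05. TBT was compared with DMSO within a population, and P5 with P4 within a generation with exposure as a covariate. For the MBD windows edgeR 4.0.16 was used (TMM, filterByExpr and its quasi-likelihood test). Alternatives included pseudocounts of 0.25 and 4 units, no filter or 20 units, equal totals, edgeR quasi-likelihood and likelihood ratio tests on recovered reads, DESeq2 1.42.0 for the MBD counts, other ways of summing, and each library left out. The limma fit of single loci for TBT and an edgeR fit of windows with equal groups were first tested on simulated data. The other fits were not. Tables were handled with Python 3.11.15 and pandas 2.3.3.

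Named were all species, the 2 loci with the highest mean per population, called loci, the loci with the largest change in each direction among those whose exposure groups did not overlap, the 3 largest rises and falls of P5 against P4 among called loci, and the MBD window with the smallest p. Neighbouring parts and LTRs of these loci, the marker sums and the kinds of IAPEY4_I-int locus were added after values were seen. The members and lists were chosen with earlier results of these data known. The files hold no strand, so loci were joined into stretches by distance alone, and reads of a locus and of an overlapping gene cannot be told apart. Gene places and names came from the GENCODE annotation of GRCm38, and sequences came from GRCm38.p6 (RefSeq). Libraries are separate samples per the labels, and p-values measure only the spread between them, which may be partly technical.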

Additional observations from a re-analysis of the deposited data

Results flagged for a closer look

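Within each group of 4 to 10 libraries, the species totals and the called loci were searched for 1 library that stood apart from the rest by Dixon's criterion at the 95% level. This held in 5 of 137 groups, where chance alone gives about 6.85. The IAPEY3-int total was 291 CPM in F1 P5 DMSO 44-1, against 191 to 205 in the other DMSO libraries of that population, and it was 157 CPM in F3 P6 TBT 9, against 166 to 169. The IAPEY4_LTR total was 241 CPM in F1 P6 TBT 11, against 109 to 156, and the IAPEY4_I-int total of that library (1794 CPM) was the highest of F1 P6 as well. This library also had the highest Leydig cell marker sum of F1 P6 (477 CPM, others 187 to 402) and the lowest endothelial one (33.9 CPM, others 85.9 to 193), and their part in these totals was not tested. The IAPEY5_LTR total was 102 CPM in F3 P4 TBT 9, against 19.1 to 37.9, and this library had low germ cell marker signal (2274 CPM). The chromosome 16 IAPEY4_I-int locus at chr16:3625352-3628768 had 27.97 CPM in F3 P6 DMSO 4, against 7.14 to 10.1, and this library had raised germ cell marker signal (210 CPM).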

How the results depend on the processing

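Of 372 counts of IAPEY calls under alternatives, 339 were within 1.5 times the reported count and 33 were not, and the cause was not tested. Of 2101 single values, 1996 kept direction and side of the threshold or moved by less than the spread, 48 lost and 25 gained a call, 32 moved and 0 reversed. Of 80 species totals that were not called, 46 changed sign under some alternative, and of 10 that were called, 0 did. For TBT, the likelihood ratio test on recovered reads called 2 IAPEY loci in F1 P4, 1 in F1 P5, 3 in F1 P6, 23 in F3 P5 and 7 in F3 P6. Without a filter F1 P5 had 6, and with a pseudocount of 0.25 units F3 P6 had 1. Leaving out 1 library gave 0 to 1 loci in F1 P5 (1 without DMSO 44-1) and 1 to 3 in F3 P6 (1 without TBT 6 or without TBT 8), and 0 in the other populations. For P5 against P4 in F1, the count of loci was 156 without a filter, 31 at 20 units and 22 with DMSO libraries only, the totals were 5 with DMSO libraries only, and leaving out 1 number gave 61 to 68 loci and 7 to 8 totals. In F3 the count of loci was 11 without a filter, 1 at 20 units, 64 by the edgeR quasi-likelihood test, 0 with DMSO libraries only and 10 without numbers 1 and 2 together, and leaving out 1 number gave 7 (without 7) to 32 (without 5). The F3 totals were 5 by the quasi-likelihood test, 7 with equal totals, 7 over loci outside genes only, 5 without numbers that have a library under 2e+06 reads and 1 without numbers 1 and 2 together, and leaving out 1 number gave 2 to 4 (4 without 5). Leaving out numbers 1 and 2, libraries under 2e+06 reads, DMSO 3 and 4 of F3 P6, and the DMSO numbers 43-4, 44-1 and 44-3 of F1 (64 loci and 7 totals for P5 against P4, 0 for TBT in P4) were alternatives chosen after seeing the data. P4 and P5 libraries share numbers, and their deviations correlated at -0.0118 to 0.499 over 11 pairs in F1 and at -0.202 to 0.584 over 9 in F3. In each generation 7 pairs were over 0.1. Among P5 libraries of the same exposure, 8 P4 libraries of F1 and 5 of F3 were closest to their own number. Most but not all numbers thus went with likeness of the libraries, and the main fits do not use the number. With the number as a block the loci were 71 in F1 and 27 in F3, and the totals 8 and 5. The lowest F3 germline libraries had 246520 and 833449 reads, and without libraries under 2e+06 reads 0 IAPEY loci were called for TBT in F3 P4 and P5.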
